A study of Mus musculus with 5 samples.

Results

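The proteasome genes examined here were all genes of the deposited table whose symbol begins with Psma, Psmb, Psmc, Psmd, Psme, Psmf or Psmg followed by a digit, without rows named as pseudogenes. The rule returned 50 of the 55335 genes: 8 Psma, 11 Psmb, 7 Psmc, 14 Psmd, 5 Psme, Psmf1 and 4 Psmg. Of these, 49 had at least 1 TPM, a gene's share of all length-corrected transcripts, in at least 2 libraries and were tested, and Psmb11 did not reach that level. Psmc3ip meets the symbol rule but encodes a partner protein in meiotic recombination and is not a proteasome subunit, so it is named wherever it decides a value. They were measured by RNA sequencing in haematopoietic stem cells, or HSCs, taken from mouse bone marrow at an age of 3 weeks and sorted as Lin-, Kit+, Sca-1+, CD48- and CD150+ cells. There were 3 wild-type and 2 RankCre-ki libraries, each made from 80 to 90 cells if the last number in a library name is its number of cells. RankCre-ki mice were heterozygous for Cre placed in the Rank gene (Tnfrsf11a) and carried a floxed and a null allele of Csf1r, the receptor of a macrophage growth factor. In the study's account this Cre is active in embryonic macrophages but not in other blood cells, and the animals lack those macrophages and osteoclasts and have dense bones, so the sorted HSCs themselves were not the cells targeted. The strain label was C57BL/6J throughout, while the study's methods keep the Csf1r null line on C3H/HeJ, and the allelic state of the controls was given no further than wild-type. The labels call the samples replicates and do not say whether each was a separate animal, so the spread between libraries may be in part technical.

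Proteins marked with ubiquitin chains are degraded by the proteasome. Its 20S core is a barrel of alpha rings (Psma), which gate the entrance, and beta rings (Psmb), which hold the cutting sites. Psmb6, Psmb7 and Psmb5 carry the caspase-like, trypsin-like and chymotrypsin-like sites. Interferon-induced and blood cells can exchange them for Psmb9, Psmb10 and Psmb8, which gives the immunoproteasome, a form that favours peptides for display on MHC class I. The 19S particle caps the barrel: ATPases (Psmc) unfold the substrate and the Psmd subunits bind and remove ubiquitin or hold the particle together. Psme1 and Psme2 form the PA28 cap, Psme3 and Psme4 are nuclear activators, Psmf1 (PI31) binds the core and was described as an inhibitor, and Psmg1 to Psmg4 are chaperones that assemble the core. In HSCs, which make little protein, a low load of misfolded protein has been linked to the upkeep of the stem cell state.

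The cells carried their label's markers, and a few features of the libraries moved with genotype. All 7 HSC markers were detected, with a summed level of 355 to 758 TPM in wild-type and 661 to 1183 TPM in RankCre-ki libraries. Macrophage markers summed to 4.42 to 38.6 TPM and 30.5 to 60.2 TPM, with Adgre1 at 0 in all 5 libraries. Erythroid markers summed to 67.8 to 124 TPM and 252 to 635 TPM. This was nearly all Hbb-bt except in wild-type replicate 1, with Hbb-bt at 36.2 and Hba-a1 at 31.6 TPM. Granulocyte markers summed to 0 to 2.24 TPM and 8.31 to 12.9 TPM with Ly6g and Elane at 0, T and NK cell markers to 0 to 0.052 TPM and 4.398 to 19.2 TPM, B cell markers to at most 0.299 TPM with Cd79a at 0, and Cd48 with Flt3 to 1.13 to 8.54 TPM and 15.3 to 16.02 TPM. Csf1r itself was at 2.39, 0 and 0.234 TPM in wild-type and 17.5 and 6.46 TPM in RankCre-ki libraries, and Tnfrsf11a did not exceed 2.08 TPM, levels that do not check the genotype of cells in which the floxed allele is not cut. Genes with at least 1 TPM numbered 9021 to 11084 in wild-type libraries and 12801 and 16386 in RankCre-ki libraries, and mitochondrially encoded genes took 14.7 to 21.0% and 8.21 to 10.7% of TPM. The part of these features in the results below was not tested. The library names fall into 2 series, with the first wild-type and the second RankCre-ki library in name series 1 and the other 3 libraries in name series 2, a split of the same composition as the tagmentation kits in the study's methods. The labels call wild-type replicate 1 male and the others female, but RankCre-ki replicate 2 carried Eif2s3y, a Y-linked gene, at 62.5 TPM and Xist at 0.023 TPM. Sex as carried by the transcripts therefore splits the libraries in the same way as the name series, and these cannot be told apart.

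Promoter sequence was set beside the measurements for 42 of the 50 genes, those matched by symbol in the table of RefSeq promoters used here (GRCm38.p6). The 250 bases before each start were searched on both strands for short motifs. CCGGAA, the core bound by ETS factors, occurred in 18 of the 42 genes (42.9%) and in 13.6% of all 27025 genes with such a window (17.0% of the 17492 protein-coding genes). TGACNNNGC, the core of the antioxidant response element that NRF1 and NRF2 bind, occurred in 5 (11.9%), against 11.5% of all genes. The CCAAT box occurred in 35.7% against 37.5%, the core of the interferon-stimulated response element (TTTC, any 2 bases, TTTC) in 7.14% against 3.46%, and TTCNNNGAA, the gamma-activated sequence, in 4.76% against 8.13%. The antioxidant core was held by Psmb5, Psmb6, Psmc6, Psmd12 and Psmd9, the interferon core by Psmb3, Psmd4 and Psmd9, and the gamma-activated sequence by Psmb8 and Psmg1. A match is a description of letters in a window and not a bound site. The windows of Psmb5 and Psmb6 are shown because these core subunits lay on opposite sides between the genotypes although each holds an antioxidant core, and that of Psmd4 because its level varied least of all members. Capitals mark the motif matches, read 5′ to 3′ on the strand of the gene. ATTGG in the third is CCAAT on the other strand, and its TTCCGGAA holds CCGGAA on both strands with overlap. The Psmb5 window spans chr14:54618023-54618245 on the minus strand, cut short by 27 bases where an annotated exon begins, that of Psmb6 chr11:70525107-70525356 on the plus strand, and that of Psmd4 chr3:95042615-95042864 on the minus strand (GRCm38.p6).
Psmb5: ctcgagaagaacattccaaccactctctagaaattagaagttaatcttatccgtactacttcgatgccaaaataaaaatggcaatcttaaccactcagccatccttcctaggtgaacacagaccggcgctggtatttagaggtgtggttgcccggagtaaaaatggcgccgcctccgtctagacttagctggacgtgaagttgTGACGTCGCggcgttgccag
Psmb6: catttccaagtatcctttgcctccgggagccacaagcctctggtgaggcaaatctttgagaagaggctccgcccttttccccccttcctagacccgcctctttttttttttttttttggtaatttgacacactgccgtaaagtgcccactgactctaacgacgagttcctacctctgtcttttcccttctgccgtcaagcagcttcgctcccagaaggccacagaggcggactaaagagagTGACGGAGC
Psmd4: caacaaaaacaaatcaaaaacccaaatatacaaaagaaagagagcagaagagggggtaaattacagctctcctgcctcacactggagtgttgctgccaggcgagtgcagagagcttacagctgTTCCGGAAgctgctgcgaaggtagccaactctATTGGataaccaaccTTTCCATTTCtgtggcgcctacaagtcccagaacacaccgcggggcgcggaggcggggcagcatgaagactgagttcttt

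Values are given below in the order of wild-type replicates 1 to 3, then RankCre-ki replicates 1 and 2. The proteasome genes were among the abundant transcripts of these cells. The median member stood at the 93.7th percentile of the 13981 tested genes, ranked by median TPM over the 5 libraries. Of the 49 tested members, 36 lay in the top 10% and 48 in the upper part above the median of all genes. The members' median was 145 TPM and that of all tested genes 8.02 TPM. TPM is corrected for transcript length, so levels of different genes can be set side by side. The highest members by median were Psmb6 (640 TPM), Psmb2 (610 TPM) and Psma3 (588 TPM). No member was at 0 TPM in any library, but 10 and 9 members were under 20 TPM in wild-type replicates 1 and 2, against 4 in wild-type replicate 3 and 6 and 5 in the RankCre-ki libraries. Longer transcripts had lower levels: over the 50 genes Spearman's rho between transcript length and TPM was -0.486 to -0.365 in the 5 libraries, a description of genes that share each library. The 12 members with a median under 50 TPM had a median length of 2372.5 nucleotides, and the 16 members with at least 200 TPM had 1174 nucleotides.

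**Figure D1:**
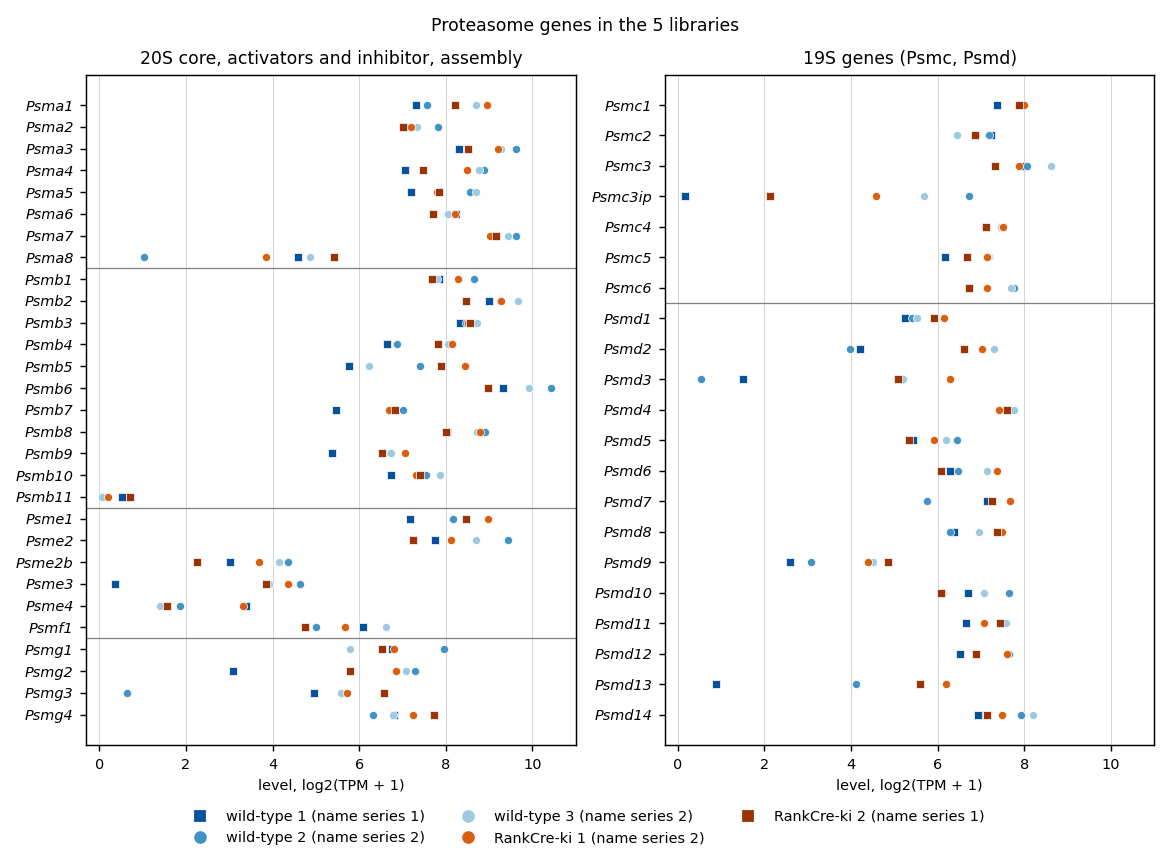
Level of each of the 50 proteasome genes in each library, on the horizontal axis as log2(TPM + 1), with 1 row per gene; blues are wild-type and oranges RankCre-ki libraries, and squares and circles are name series 1 and 2. Most members form a tight band of 5 points between 6 and 10, whereas Psmd3, Psmd13, Psmc3ip, Psme3 and Psmg3, among others, spread over several log2 units.

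Summed over the complex, the level did not separate the genotypes. The 50 genes summed to 6678, 11176 and 11076 TPM across wild-type replicates and to 9969 and 7758 TPM in the RankCre-ki libraries, or 0.668 to 1.12% of all transcripts. The wild-type mean was 9643 ± 2569 TPM (SD, n = 3) and the RankCre-ki mean 8864 ± 1564 TPM (SD, n = 2), a ratio of 0.919. Wild-type replicate 1 was the lowest library and the other wild-type libraries the highest, so the groups overlapped. The same order held for the 20S genes, at 4049, 6993 and 6656 TPM against 5876 and 4533 TPM. The 19S genes gave 1935, 2651 and 3181 TPM against 2799 and 2228 TPM. Activators and inhibitor gave 438, 1051 and 894 TPM against 869 and 548 TPM, and assembly factors 255, 481 and 345 TPM against 425 and 450 TPM. In both genotypes the library of name series 1 was below those of name series 2 for the sum of all members. In a bulk sample, fewer cells with a transcript and less of it per cell cannot be told apart.

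**Figure D2:**
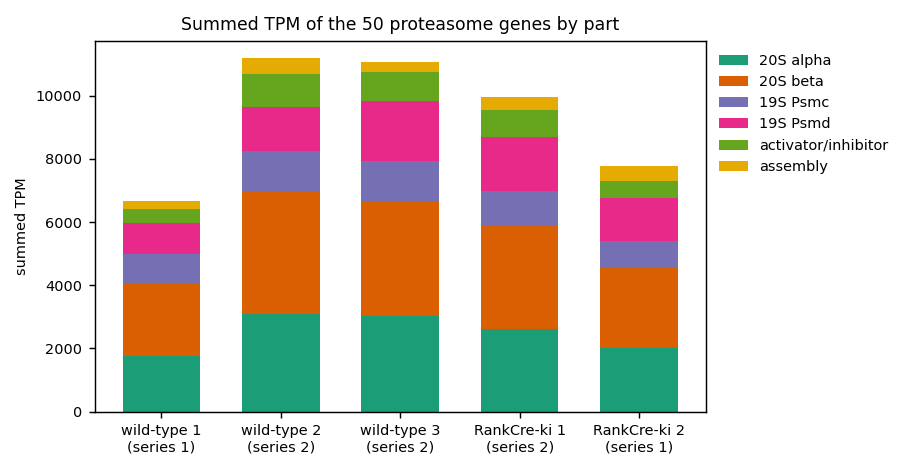
Summed TPM of the 50 genes in each library, as bars stacked by part of the complex. The totals run from 6678 TPM in wild-type replicate 1 to 11176 TPM in wild-type replicate 2, and both RankCre-ki libraries fall between them.

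The comparison of genotypes asks how HSCs differ when they arise without embryonic macrophages, and for the proteasome genes it gave no call. None of the 49 tested members passed the threshold, an adjusted p of at most 0.1 with an absolute log2 fold change above 2 (limma, Benjamini-Hochberg over all 13981 genes), and neither did any other gene (0% of genes called). The lowest adjusted p of a member was 0.546 (limma). At an unadjusted p under 0.05 (limma), 1 member was higher (Psmb5) and 0 were lower, against 6.34% and 0.529% of all tested genes. Under median-ratio scaling 0 members were higher and 4 lower, without Psmb5, where 637 and 330 of the 13981 genes were. Members were divided evenly, with 24 higher and 25 lower in RankCre-ki, whereas 72.3% of all genes were higher. The members' median log2 fold change was -0.01, that of all genes 0.52, and that of the 2551 genes with a median of at least 50 TPM 0.14. Between libraries of a genotype the members varied less than the typical gene, with a median residual SD of 0.60 on the log2 scale against 1.10 for all genes and 0.65 for genes of at least 50 TPM. Psmb5, Psmd1, Psmd8, Psmg3 and Psmg4 were higher in both RankCre-ki libraries than in all wild-type libraries, 5 of 49 where 18.8% of all genes were, and Psmb6, Psmc3, Psmd10 and Psmd4 were lower in both, 4 of 49 where 3.71% of all genes and 9.49% of genes of at least 50 TPM were. These counts rested on single libraries: without wild-type replicate 3 or RankCre-ki replicate 2 there were 14 and 13 members above, where 32.7% and 33.8% of all genes were, and without wild-type replicate 1 or RankCre-ki replicate 1 there were 20 and 14 below, where 12.3% and 12.1% of all genes and 26.5% and 27.0% of genes of at least 50 TPM were. At the unadjusted limit, leaving out wild-type replicate 1 gave 1 member higher and 4 lower, where 934 and 289 of the 13981 genes were. Leaving out wild-type replicate 3 gave 3 higher and 0 lower, where 1348 and 53 genes were. Leaving out RankCre-ki replicate 1 or 2 gave 0 members, where 836 and 716 genes were higher and 126 and 24 lower.

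**Figure D3:**
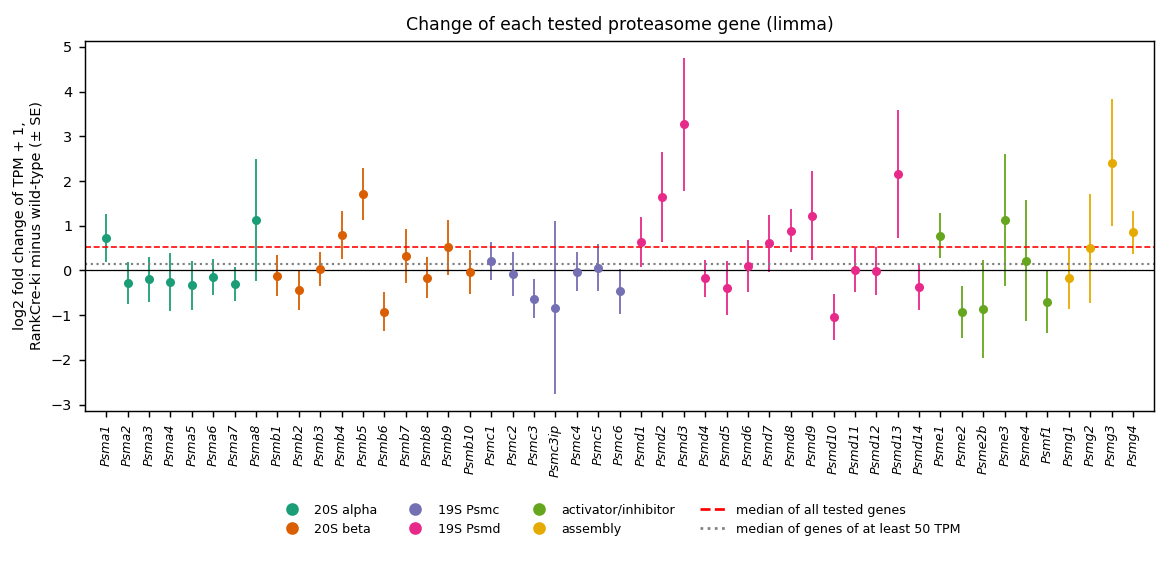
Log2 fold change of TPM + 1, RankCre-ki minus wild-type, for the 49 tested members; points are limma estimates, bars are standard errors, colours are parts of the complex (Psmc3ip is drawn with Psmc), and the dashed and dotted lines are the medians of all tested genes (0.52) and of genes of at least 50 TPM (0.14). Points lie on both sides of 0, and the catalytic subunits Psmb5 and Psmb6 lie at 1.71 and -0.92.

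In the alpha rings, 2 of 8 members were higher and 6 lower, with a median log2 fold change of -0.23, and none passed the test. Psma3, the member with the highest median, was at 314, 781 and 615 TPM in wild-type and 588 and 366 TPM in RankCre-ki libraries. Psma1 had the smallest p among those higher, at 158, 189 and 411 TPM against 491 and 294 TPM (log2 fold change 0.72 ± 0.54 SE, adjusted p = 0.916, limma). Its RankCre-ki libraries lay above wild-type replicates 1 and 2, and only 1 of them lay above replicate 3. Psma7 had the smallest p among those lower, at 549, 783 and 687 TPM against 515 and 569 TPM (log2 fold change -0.30 ± 0.37 SE, adjusted p = 0.980, limma). Psma8, the form of Psma7 known from testis, was at 23.2, 1.04 and 28.03 TPM against 13.3 and 41.7 TPM, which was 0.133 to 4.06% of the summed Psma7 and Psma8 level in wild-type and 2.52 and 6.83% in RankCre-ki libraries.

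In the beta rings, 5 of 10 tested members were higher and 5 lower, with a median log2 fold change of 0.00. Psmb5, the chymotrypsin-like subunit and the main target of proteasome inhibitor drugs, had the smallest p of all members. It was at 53.2, 167 and 73.4 TPM in wild-type and 348 and 236 TPM in RankCre-ki libraries, without overlap. Its log2 fold change was 1.71 ± 0.59 (SE) with an adjusted p of 0.546 (limma), so it was not called. Within name series 1 and 2 the change was 2.13 and 1.64, and over the alternative settings it was 1.204 to 2.18, with adjusted p between 0.230 and 0.99955 (limma). The groups overlapped for Psmb5 when libraries were scaled by median ratios, the setting with the change of 1.204. Psmb6, the caspase-like subunit, went the other way at 640, 1368 and 973 TPM against 499 and 500 TPM (log2 fold change -0.92 ± 0.43 SE, adjusted p = 0.783, limma). Its values did not overlap either, and the change was -0.35 in name series 1, -1.21 in name series 2 and -1.43 to -0.66 over the alternative settings. Psmb7, the trypsin-like subunit, was at 43.1, 129 and 110 TPM against 102 and 112 TPM and overlapped. With the name series as a block in the model, Psmb5 and Psmb6 had unadjusted p = 0.010 and 0.037 (limma), and the adjusted p of Psmb5 was 0.230.

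Psmb5 (chr14:54614119-54618022, minus strand, 3 exons, GRCm38) shares 24.9% of its transcript sequence with Gm3375 and the microRNA gene Mir686, counted in stretches of 100 bases. Fragments there may map to several places or overlap several genes. The study counted uniquely mapped fragments, and how those overlapping several genes were treated is not stated. Psmb6 (chr11:70525367-70527858, plus strand, 6 exons) shares none. Psma5, Psma3, Psmb7, Psmb3, Psmg3 and Psmd13 share 27.5, 20.6, 19.98, 18.0, 17.7 and 12.9% with other genes (Nek6 for Psmb7, Sirt3 for Psmd13), and their levels are uncertain to that extent. Pseudogene rows of Psmb5, Psmb6 and Psmb7 were present in the table at no more than 0.062 TPM. Among the subunits without a cutting site, Psmb2 had the highest median, at 506, 610 and 815 TPM against 614 and 351 TPM, and Psmb4 had the smallest p among those higher, at 98.4, 117 and 265 TPM against 281 and 225 TPM (adjusted p = 0.899, limma). Psmb3 was nearly level, at 322 to 419 TPM in all libraries. Psmb11, the subunit of the thymus, did not exceed 0.638 TPM in any library.

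The immunoproteasome subunits were expressed in every library. Psmb8 was at 261, 475 and 421 TPM in wild-type and 439 and 255 TPM in RankCre-ki libraries. Psmb9 was at 40.4, 104 and 106 TPM against 132 and 91.5 TPM, and Psmb10 at 106, 187 and 234 TPM against 158 and 167 TPM. The groups overlapped for all of them, and their adjusted p were 0.968 to 0.999 (limma). Set against the subunit it replaces, each is a share within a library and does not depend on how libraries are scaled. Psmb8 made up 83.1, 73.9 and 85.2% of the summed Psmb8 and Psmb5 level in wild-type and 55.8 and 51.9% in RankCre-ki libraries, without overlap. The means were 80.7 ± 5.97% (SD, n = 3) and 53.8 ± 2.75% (SD, n = 2), a difference of -31.2 percentage points within name series 1 and -23.8 within name series 2. Psmb9 made up 5.94, 7.08 and 9.82% of the summed Psmb9 and Psmb6 level in wild-type and 20.9 and 15.5% in RankCre-ki libraries, also without overlap, with means of 7.62 ± 1.99% and 18.2 ± 3.83%. Psmb10 made up 71.0, 59.1 and 68.1% of its pair with Psmb7 against 60.8 and 59.9%, with overlap. The Psmb8 and Psmb9 shares thus moved in opposite directions, and it was the constitutive partners Psmb5 and Psmb6 whose own levels did not overlap. The inducible subunits together made up 35.6, 31.5 and 39.7% of all 6 catalytic subunits in wild-type and 43.4 and 37.7% in RankCre-ki libraries, with overlap. These shares are given as values with no p, and a two-sided exact permutation test of 3 libraries against 2 could not go below p = 0.2. Psmb9 shares 9.02% of its transcript sequence with Tap1, which starts beside it on the other strand, and it is not stated whether reads were counted by strand.

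**Figure D4:**
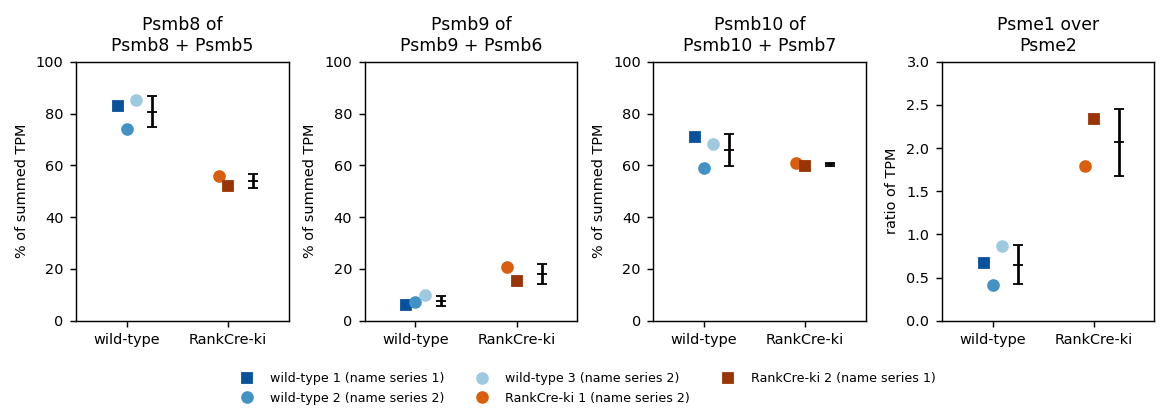
Share of each inducible catalytic subunit in its pair, in percent of the summed TPM, and the ratio of Psme1 to Psme2, by library; bars at the right of each group are the mean and SD. The Psmb8 share is 73.9 to 85.2% in wild-type and 51.9 and 55.8% in RankCre-ki libraries, and Psme1 over Psme2 is 0.418 to 0.862 in wild-type and 1.79 and 2.34 in RankCre-ki libraries.

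Each alpha and beta subunit is present in equal number in a 20S core, but their transcripts were not equal. Among the 14 constitutive core genes (Psma1 to Psma7 and Psmb1 to Psmb7), the highest exceeded the lowest 14.8-, 11.7- and 13.3-fold in the wild-type libraries and 6.00- and 5.09-fold in the RankCre-ki libraries. The highest was Psmb6 in all wild-type libraries, Psmb2 in RankCre-ki replicate 1 and Psma7 in RankCre-ki replicate 2. The SD of the log2 levels over these genes was 1.19, 1.05 and 1.08 against 0.747 and 0.679. Without Psmb5 and Psmb6 it was 1.05, 0.922 and 0.861 against 0.789 and 0.674. Psmb5 over Psmb6 alone was 0.083, 0.122 and 0.075 in wild-type and 0.697 and 0.472 in RankCre-ki libraries. These measures were chosen after the values were seen and carry no test, and the libraries with the more even core genes were also those with more genes detected.

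The 19S ATPases Psmc1 to Psmc6 stayed close to each other and between libraries. Their highest gene exceeded their lowest 1.95- to 4.505-fold within a library. Psmc3, highest by median, was at 259, 264 and 388 TPM in wild-type and 234 and 158 TPM in RankCre-ki libraries, without overlap (log2 fold change -0.63 ± 0.44 SE, adjusted p = 0.901, limma). Psmc1 was at 164, 242 and 238 TPM against 255 and 234 TPM, with overlap. Of the 7 genes with a Psmc symbol, 2 were higher and 5 lower, with a median log2 fold change of -0.08. Psmc3ip, the recombination factor, was unlike the rest, at 0.115, 104 and 50.1 TPM against 22.8 and 3.37 TPM, and shares 24.0% of its transcript sequence with Mlx.

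Of the 14 Psmd genes, 9 were higher and 5 lower in RankCre-ki, with a median log2 fold change of 0.35 that became -0.15 under median-ratio scaling (7 higher and 7 lower). Psmd4, a ubiquitin receptor, had the highest median and the steadiest level of all members: it was at 193, 201 and 217 TPM against 168 and 193 TPM, an SD of 0.133 on the log2 scale over the 5 libraries. Its groups did not overlap by a margin of under 1 TPM, with an adjusted p of 0.991 (limma). Psmd3, a subunit of the lid, had the widest range of the group on the log2 scale and the smallest p among those higher. It was at 1.83, 0.443 and 35.4 TPM against 76.3 and 33.1 TPM (log2 fold change 3.28 ± 1.49 SE, adjusted p = 0.756, limma). Wild-type replicate 3 lay with the RankCre-ki libraries. The same held for Psmd2, a scaffold of the base, at 17.5, 14.7 and 157 TPM against 129 and 96.5 TPM, and for Psmd13, another subunit of the lid, at 0.830, 16.4 and 73.3 TPM against 72.5 and 47.0 TPM. These genes were also low or near 0 only in the 2 wild-type libraries with the most members under 20 TPM, counts that include these genes. Psmd8 was at 82.0, 76.7 and 122 TPM against 178 and 164 TPM, and Psmd1, the other base scaffold, at 36.6, 41.4 and 45.1 TPM against 69.1 and 59.6 TPM, each without overlap. Their adjusted p were 0.868 and 0.935 (limma).

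Psmd10 and Psmd9 carry Psmd symbols but are chaperones that help build the 19S base. Psmd10, an X-linked gene also known as gankyrin, was at 103, 198 and 132 TPM in wild-type and 67.6 and 66.5 TPM in RankCre-ki libraries, without overlap. It had the smallest p among the Psmd genes that were lower (log2 fold change -1.04 ± 0.51 SE, adjusted p = 0.812, limma). Psmd9 had the lowest median of the group, with 5.06, 7.46 and 21.7 TPM in wild-type and 19.9 and 27.9 TPM in RankCre-ki libraries. The summed 19S level, here without Psmc3ip, over the summed constitutive 20S level was 0.535, 0.409 and 0.534 in wild-type and 0.541 and 0.559 in RankCre-ki libraries, without overlap, but the means differed by less than the spread of the wild-type libraries.

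The PA28 subunits had no call on their own, and their ratio did not overlap between genotypes. Psme1 was at 142, 287 and 354 TPM in wild-type and 500 and 352 TPM in RankCre-ki libraries (log2 fold change 0.78 ± 0.51 SE, adjusted p = 0.887, limma). Psme2 was at 213, 687 and 411 TPM against 279 and 150 TPM (log2 fold change -0.93 ± 0.58 SE, adjusted p = 0.887, limma). The groups overlapped for each gene. Psme1 over Psme2 was 0.669, 0.418 and 0.862 in wild-type and 1.79 and 2.34 in RankCre-ki libraries. Psme2 shares 44.5% of its transcript sequence with Psme2b, a copy on another chromosome that was at 7.15, 19.4 and 16.6 TPM against 11.8 and 3.81 TPM, and adding Psme2b to Psme2 gave 0.647, 0.407 and 0.828 against 1.72 and 2.28. With the name series as a block, Psme1 had an unadjusted p of 0.023 and an adjusted p of 0.364 (limma), where 8.89% of all genes were higher and 1.19% lower at an unadjusted p under 0.05.

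The remaining activators were low. Psme3 was at 0.284, 24.0 and 14.2 TPM in wild-type and 19.4 and 13.5 TPM in RankCre-ki libraries, low only in wild-type replicate 1. Psme4 was at 9.47, 2.65 and 1.66 TPM against 8.95 and 1.97 TPM, and the inhibitor Psmf1 at 66.7, 31.1 and 97.4 TPM against 49.6 and 26.0 TPM. All of these overlapped, with adjusted p of 0.948 to 0.993 (limma). The core chaperones work in pairs, Psmg1 with Psmg2 and Psmg3 with Psmg4. Psmg1 was at 108, 248 and 54.7 TPM against 110 and 91.2 TPM and Psmg2 at 7.48, 155 and 135 TPM against 114 and 53.8 TPM, both with overlap. Psmg3 was at 30.2, 0.570 and 46.7 TPM against 51.5 and 94.1 TPM and Psmg4 at 110, 78.4 and 109 TPM against 149 and 210 TPM, both higher in each RankCre-ki library than in each wild-type library. Their log2 fold changes were 2.41 ± 1.43 (SE) and 0.85 ± 0.47 (SE), with an adjusted p of 0.881 each (limma).

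Of 31 partner and regulator genes outside the symbol rule, 0 passed the threshold or an adjusted p of 0.1, and 0 had an unadjusted p under 0.05 (limma). There were 21 higher and 10 lower, where 72.3% of all genes were higher. Their median log2 fold change was 0.85 against 0.52 for all genes, 0.35 against 0.16 under median-ratio scaling and 0.23 against -0.09 under quantile normalization. Pomp, the chaperone that completes the core, was at 387, 335 and 236 TPM in wild-type and 162 and 221 TPM in RankCre-ki libraries, without overlap (log2 fold change -0.73, adjusted p = 0.881, limma). Adrm1, a ubiquitin receptor of the 19S particle, was at 83.4, 99.1 and 122 TPM against 77.7 and 71.1 TPM. Usp14, a deubiquitinase bound to the 19S base, was at 17.9, 76.8 and 77.2 TPM against 118 and 94.8 TPM. Pomp and Adrm1 thus lay lower and Usp14 higher in both RankCre-ki libraries than in all wild-type libraries. Nfe2l2 (NRF2) was at 37.3, 25.8 and 17.7 TPM against 73.3 and 49.9 TPM, and Nfe2l1 (NRF1), which raises proteasome genes when the proteasome is inhibited, at 2.47, 7.26 and 0.634 TPM against 12.02 and 5.21 TPM. The first did not overlap (log2 fold change 1.201, adjusted p = 0.881, limma) and the second did. Irf1, an interferon-side inducer of the immunoproteasome, was at 56.7, 28.5 and 52.2 TPM against 47.9 and 28.6 TPM, with overlap.

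The name series separated the members more evenly than genotype did. In a fit with both terms, 42 of 49 members were higher in name series 2 than in name series 1, where 57.1% of all genes were, with a median difference of 0.61 against 0.24 for all genes and 0.44 for genes of at least 50 TPM. None passed the threshold, which 4.71% of all genes did, and 8 members were higher and 0 lower at an unadjusted p under 0.05 (limma, 7.7% and 12.3% of all genes). Under median-ratio scaling 3 were higher and 0 lower, where 809 and 1768 of the 13981 genes were. Without wild-type replicate 3 there were 5 and 1, where 784 and 1410 genes were. The alpha subunit Psma4 had the lowest adjusted p, 0.082, at a difference of 1.44 (limma), with 133 and 177 TPM in the libraries of name series 1 and 469, 436 and 358 TPM in those of name series 2. Within each series the genotype change of the members had a median of 0.39 in name series 1 (31 of 49 higher) and -0.03 in name series 2 (23 of 49 higher), each with 1 RankCre-ki library.

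**Figure D5:**
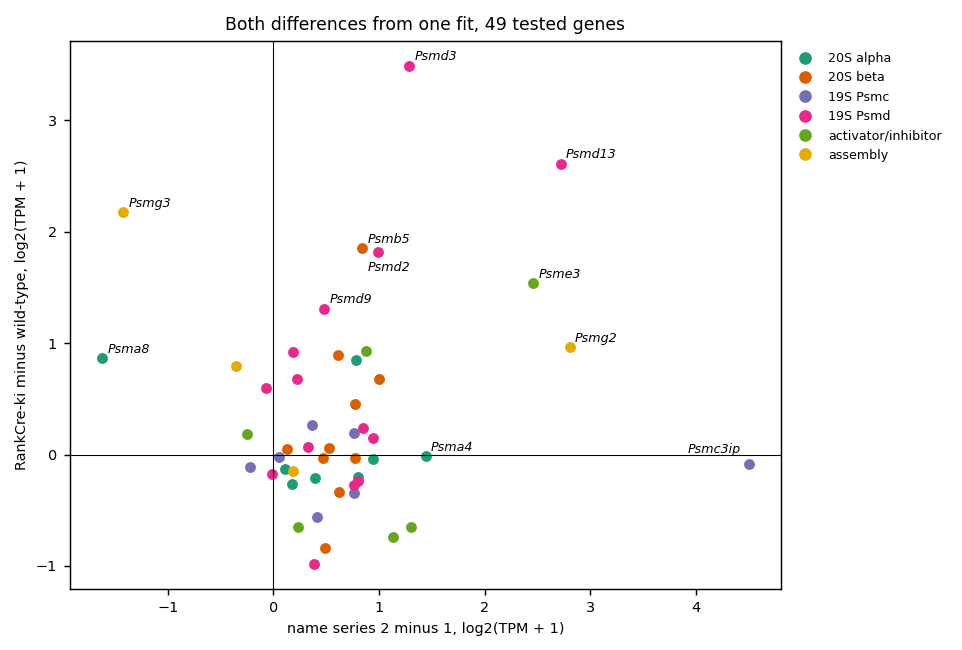
Difference of each tested member between the name series (horizontal) and between the genotypes (vertical) from a single fit, both on the log2(TPM + 1) scale; colours are parts of the complex. The points lie mostly to the right of 0, 42 of 49, and are spread about 0 on the vertical axis.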

How the data were processed

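Full-length poly(A) RNA libraries of sorted HSCs were analysed from 5 samples. Per the study's methods the authors aligned reads with gsnap to mm10 and counted them with featureCounts 2.0.1 (version from the submitters' notes). The deposited values are TPM per gene, made by the authors with a program not given in the sources used here, and neither strand use nor the treatment of reads shared by genes is stated. TPM holds no depth, so no counting error could be attached, and precision was judged from the spread between libraries. The table held 55427 rows, of which 92 spike-in rows, all at 0, were left out.

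Values were transformed to log2(TPM + 1), so fold changes of low genes are understated. Genes that reached 1 TPM in 2 or more libraries entered a limma 3.58.1 model in R 4.3.3 (lmFit, eBayes with trend, two-sided) over all 5 libraries, with the study's threshold and no covariate, after tests on simulated data. A second fit held genotype and name series. Groups and replicate numbers came from the sample titles. Positions and exons are from GENCODE M21 (GRCm38, called mm10), promoters from RefSeq. Members, lists, tests and the rule for named genes were chosen with earlier results of these data known. The rule names the catalytic and tissue-restricted subunits, all Psme, Psmf and Psmg genes, in each other family the genes of highest and lowest median and of smallest p in each direction, and Pomp, Adrm1, Usp14, Nfe2l1, Nfe2l2 and Irf1; 1 further gene of the rule is not reported here. Psma5, Psmb3, Psma4, Psmd1, Psmd2, Psmd8, Psmd13 and the genes of the promoter and sequence-sharing sentences were named after their values were seen. Alternatives covered pseudocount, filter, scaling, blocks and each library left out.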

Additional observations from a re-analysis of the deposited data

How the results depend on the processing

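No member passed the threshold under any scaling, filter, pseudocount, block or left-out library. At an unadjusted p under 0.05 alone (limma), 1 did in the main setting (Psmb5, higher). Median-ratio scaling gave 0 higher and 4 lower (Psmb6, Psmc3, Psmd10 and Psme2), where 637 and 330 of the 13981 genes were. Quantile normalization gave 2 and 2 (425 and 191 genes), the name series block 2 and 1 (1243 and 166 genes), and the replicate block 4 and 0 (552 and 13 genes). Of the 31 partners and regulators, 0 passed the threshold under any setting run. With the name series block, 4 had an unadjusted p under 0.05 (Vcp, Txnl1 and Tap2 higher, Pomp lower; limma), where 1409 of the 13981 genes did. Without wild-type replicate 3 there were 3 (1401 genes), with the replicate block 2 (565 genes), and without wild-type replicate 2 also 2 (633 genes). Median-ratio scaling and leaving out wild-type replicate 1 gave 1 each (967 and 1223 genes). Median-ratio scaling moved the median of all genes by -0.36, the members' median to -0.51 and the ratio of summed TPM to 0.648. The members without overlap became 1 above and 19 below. Of all genes 12.2% and 8.88% were, and of genes of at least 50 TPM 5.14% and 25.1%. Under quantile normalization, which moved the median of all genes by -0.60, 8 members were above and 6 below. Of all genes 11.6% and 11.2% were, and of genes of at least 50 TPM 14.1% and 12.3%. Relative to all genes the members' median was -0.52, with -0.67 under median-ratio scaling and 0.06 under quantile normalization. Leaving out each library gave 5 to 14 members above (24.3 to 33.8% of all genes) and 5 to 20 below (5.66 to 12.3%), and 0 to 1 members past the threshold between the name series (Psmg2, without RankCre-ki replicate 2), where quantile normalization also gave 1 (Psmc3ip). With each library left out, 17.8 to 33.4% of genes of at least 50 TPM were above and 11.3 to 27.0% below. Of 35 named genes with a fit, 23 kept their direction. Median-ratio scaling turned Psmb7 to -0.17, Psmc1 to -0.30 and Psme4 to -0.19, quantile normalization turned Psme4 to -0.96, and the name series block turned Psmb10 to 0.055. With each library left out, the log2 fold change ran from -0.60 to 0.12 for Irf1, -0.58 to 0.14 for Psma3, -0.10 to 1.92 for Psma8, -0.36 to 0.21 for Psmb10, -0.15 to 0.63 for Psmb7, -0.55 to 0.23 for Psmb8, -2.85 to 0.44 for Psmc3ip, -0.18 to 1.96 for Psme3, -0.65 to 1.09 for Psme4, -0.70 to 0.38 for Psmg1 and -0.87 to 1.23 for Psmg2. The cause was not tested. Without a RankCre-ki library, the lone one left is assumed to vary like the others. The Psmb8, Psmb9 and Psmb10 shares kept their direction with each library left out, at -30.3 to -24.7, 7.85 to 13.3 and -9.20 to -3.27 percentage points. Leaving out Psmc3ip or members with a mean under 50 TPM was added after the data were seen and gave a members' median of 0.00 and -0.06.

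Same-numbered libraries deviated in opposite directions (r = -0.380 and -0.195), so the numbers do not pair them. With the replicate block, 0 members passed the threshold, Psmb10 was at 0.21 and Psme4 at -0.18.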

Other observations

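Over the 49 tested members, the RankCre-ki libraries had the highest correlation of any pair, with Pearson's r = 0.920 on log2(TPM + 1), followed by 0.912 for the pair of wild-type 3 and RankCre-ki 1, whereas wild-type 2 and RankCre-ki 2 had the lowest, 0.659. Over all tested genes the RankCre-ki pair had r = 0.769, and wild-type 3 with RankCre-ki 1 had the highest, 0.845. These values are across genes of the same libraries and are given as a description. Wild-type replicate 3 therefore stood nearer to a RankCre-ki library than to the other wild-type libraries, at 0.776 and 0.806 over the members.

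The transporter genes Tap1 and Tap2, which carry proteasome-made peptides to MHC class I and lie beside Psmb9 and Psmb8, were at 0.078, 11.4 and 34.9 TPM and at 0.104, 7.15 and 13.2 TPM in wild-type, against 33.1 and 42.0 TPM and 46.6 and 19.1 TPM in RankCre-ki libraries. Only Tap2 did not overlap, and neither passed the test (adjusted p = 0.888 and 0.868, limma). Vcp, the ATPase that extracts ubiquitin-marked proteins for the proteasome, had the smallest p of the partners, at 57.6, 88.0 and 109 TPM against 190 and 158 TPM (log2 fold change 1.07, adjusted p = 0.791, limma). These genes were named after their values were seen.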
